A study of Mus musculus with 8 samples.

Results

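The uncoupling proteins and the regulators and effectors of the brown fat programme were followed in subcutaneous fat of diabetic mice given niacin-bound chromium or water. The set was 10 genes, Ucp1, Ucp2, Ucp3, Prdm16, Ppargc1a, Dio2, Elovl3, Otop1, Kcnk3 and Ebf2. Every probe set naming 1 of these genes and no other was taken, which gave 23 probe sets of 9 genes, out of 18193 genes that the platform annotation used names. Ucp2 is not named in it and was not analysed here. All 8 animals were male, listed as 8 weeks old and, per the series title, diabetic, with the strain not given in the sources used here. The 4 placebo mice (numbers 6, 8, 10 and 14) received water, and the 4 supplemented mice (numbers 5, 9, 11 and 13) received niacin-bound chromium, a complex of trivalent chromium with niacin abbreviated NBC, at 10 mg per kg body weight. Both groups were gavaged for 10 weeks on 5 days of each week, and each mouse gave 1 Affymetrix Mouse Genome 430 2.0 array.

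Uncoupling proteins are carriers of the inner mitochondrial membrane and belong to the Slc25 family. Ucp1 lets protons return to the matrix without making ATP, so that the energy is released as heat, and it is the hallmark of brown adipocytes and of the beige adipocytes that can arise in subcutaneous white fat. Ucp3 is found mainly in skeletal muscle and brown fat. Noradrenaline raises cyclic AMP in these adipocytes, and this signal is carried to the thermogenic genes partly through factors that bind cyclic AMP response elements.

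RefSeq promoter windows (build GRCm38.p6) matched 6 of the 9 measured genes. The 250 bases before the transcription start are shown for Ucp1 (chr8:83290098-83290347, plus strand), for Ucp3 (chr7:100472741-100472990, plus strand) and for Dio2 (chr12:90739039-90739288, minus strand), because Ucp1 and Ucp3 are the pair compared within each mouse and Dio2 had the most matches to the motif. Each reads 5′ to 3′ on the strand of its gene, and capitals mark TGACG or its reverse complement CGTCA, the core of the cyclic AMP response element.
Ucp1: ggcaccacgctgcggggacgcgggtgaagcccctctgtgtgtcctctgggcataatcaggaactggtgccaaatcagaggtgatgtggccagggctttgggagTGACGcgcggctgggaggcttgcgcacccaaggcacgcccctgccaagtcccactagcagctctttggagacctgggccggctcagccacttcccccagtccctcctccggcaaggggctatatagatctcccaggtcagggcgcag
Ucp3: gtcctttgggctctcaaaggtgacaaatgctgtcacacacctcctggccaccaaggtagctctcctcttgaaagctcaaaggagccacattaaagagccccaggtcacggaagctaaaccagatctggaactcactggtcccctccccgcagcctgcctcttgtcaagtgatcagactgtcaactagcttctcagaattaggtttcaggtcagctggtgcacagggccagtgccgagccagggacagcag
Dio2: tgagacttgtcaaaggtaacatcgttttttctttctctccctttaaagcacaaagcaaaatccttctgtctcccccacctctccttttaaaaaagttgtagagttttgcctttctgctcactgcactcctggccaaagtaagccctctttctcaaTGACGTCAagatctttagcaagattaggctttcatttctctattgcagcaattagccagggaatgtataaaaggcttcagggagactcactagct
Ucp1 had 1 match, which began 147 bases before the start. Dio2 had 2 overlapping matches, the first 95 bases before the start. Ucp3 had 0. Among the 6 matched genes 3 held the motif (Ucp1, Dio2 and Ppargc1a), against 17.8% of 32851 promoter windows of the same length. A match describes these letters and is not evidence of binding, and no binding was measured.

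Adipocyte markers were bright on every array: the summed signal of the 10 measured ones, among them Adipoq and Fabp4, ran from 600147 to 737306 with placebo and from 589402 to 695796 with NBC. Skeletal muscle markers differed widely. The summed signal of all 15 ran from 8224 to 29283 with placebo. It stood at 180303, 199567 and 183428 for mice 13, 11 and 5 of the NBC group but at 22468 for NBC mouse 9, and all 15 had a higher mean in NBC. The Gapdh 3′ to 5′ signal ratio, which rises when RNA is degraded, ran from 0.92 to 1.04 with placebo and was 1.11, 1.28, 0.84 and 1.47 for NBC mice 13, 11, 9 and 5. The same ratio of Actb ran from 1.51 to 1.74 with placebo and was 1.56, 1.82, 1.51 and 2.1 for these NBC mice. By Actb, NBC mouse 13 thus lay inside the placebo range. The median signal of an array was 285.5 to 329.6. Signals of single mice are listed below in a constant order, placebo 6, 8, 10, 14 and NBC 13, 11, 9, 5.

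Differences are given as log2(signal + 26) in NBC minus placebo, from limma's moderated test over 22519 probe sets whose mean reached the median of all (a signal of about 275). Of the 23 probe sets, 12 passed this filter, from 8 genes. The other 11 were tested in the same fit over all 45037 probe sets, and Dio2 had none above the filter. None of the 23 passed limma's Benjamini-Hochberg adjusted threshold of 0.05, where 0% of all 22519 did. At an unadjusted p under 0.05 there were 2 of the 12, Ucp1 lower and 1 probe set of Ebf2 higher in NBC. The background at that p was 6.22% of all probe sets in either direction, 3.28% higher and 2.94% lower. Of the 11 dim probe sets 1, of Dio2, had a p under 0.05, beside 5.32% of all 45037. With each mouse left out in turn, Ucp1 was among those at p under 0.05 every time. The Ebf2 probe set was not without NBC mouse 11, NBC mouse 13, placebo mouse 6 or placebo mouse 8. Ppargc1a 1437751_at joined them only without NBC mouse 13 (limma unadjusted p = 0.0208). The Dio2 probe set kept a p under 0.05 only without NBC mouse 11 and without placebo mouse 10, and in the 6 other cases its p was 0.0514 to 0.114 in limma, unadjusted. No member probe set, above or below the filter, separated the 4 placebo from the 4 NBC mice. Of all 22519 probe sets above the filter 3.85% did (1.79% with NBC higher and 2.06% with NBC lower). For 12 member probe sets, 0 is near that share. The 12 lay 6 above and 6 below 0 with a median of 0.009, beside 52.1% below 0 and a median of -0.01 over all 22519.

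Ucp1 (probe set 1418197_at, the only one of this gene) had the widest group difference. The placebo signals were 3819, 3754, 1408 and 4060.5. The NBC signals were 2078, 796, 1199 and 838. The groups overlapped through placebo mouse 10, the lowest of its group, which lay below NBC mouse 13, the highest of its group. The placebo mean, 3260.3 ± 1242 (SD, n = 4), was 2.66 times the NBC mean of 1228 ± 595 (SD, n = 4). The log2 difference was -1.39 (SE 0.40, 95% confidence interval -2.29 to -0.48), with an adjusted p of 0.73 in limma. A two-sided exact permutation test over the 70 assignments gave p = 0.0571, where 0.0286 is the smallest that 4 against 4 allows. By limma's unadjusted p the gene ranked 99 among 11662. Over the 8 arrays 0.926% of genes had a larger SD of log2 signal than Ucp1 (0.97). That SD spans both groups and so contains the group difference. Within groups the SD of Ucp1 was 0.72 with placebo and 0.63 with NBC. In these bulk samples fewer Ucp1-bearing cells and less Ucp1 RNA per cell cannot be told apart.

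The mice with the lowest Ucp1, NBC 11 and NBC 5, were also the ones with the highest Gapdh 3′ to 5′ ratios and were among the 3 with high muscle markers. Macrophage markers also had higher means in NBC mice, 14 of 14 at their brightest probe sets (median log2 difference 0.25). So did 7 of 7 stromal fibroblast markers (median 0.23). Other kept probe sets of Laptm5, Fcgr1 and Pdgfra included values below 0. Lymphocyte markers lay below 0 for 6 of 7 (median -0.63), unevenly between NBC mice. Cd79a, for example, read 251, 79, 1587 and 1464 with NBC and 925 to 1287 with placebo. The part of these cell types in the Ucp1 difference, and that of RNA quality and of muscle RNA, was not tested. NBC mouse 9, whose Gapdh ratio was the lowest, read 1199 for Ucp1, below each placebo mouse. Its summed muscle markers, 22468, lay below placebo mouse 10 (29283) but above placebo mice 6, 8 and 14 (8224 to 13600.2). In NBC mouse 9, Eno3, Pvalb and Casq1 among the 15 lay above every placebo mouse. Placebo mouse 10, the lowest of its group for Ucp1, had the highest muscle sum of its group. Without NBC mouse 9 the log2 difference of Ucp1 was -1.41 and without placebo mouse 10 it was -1.75. With each array centred on 10 adipocyte markers it was -1.21, where the median of all probe sets stood at 0.17, and centred on 16 mitochondrial genes it was -1.33. The summed mitochondrial markers, of which 11 of 16 lay below 0, ran from 527643 to 589586 with placebo and from 503076 to 583419.7 with NBC.

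**Figure D1:**
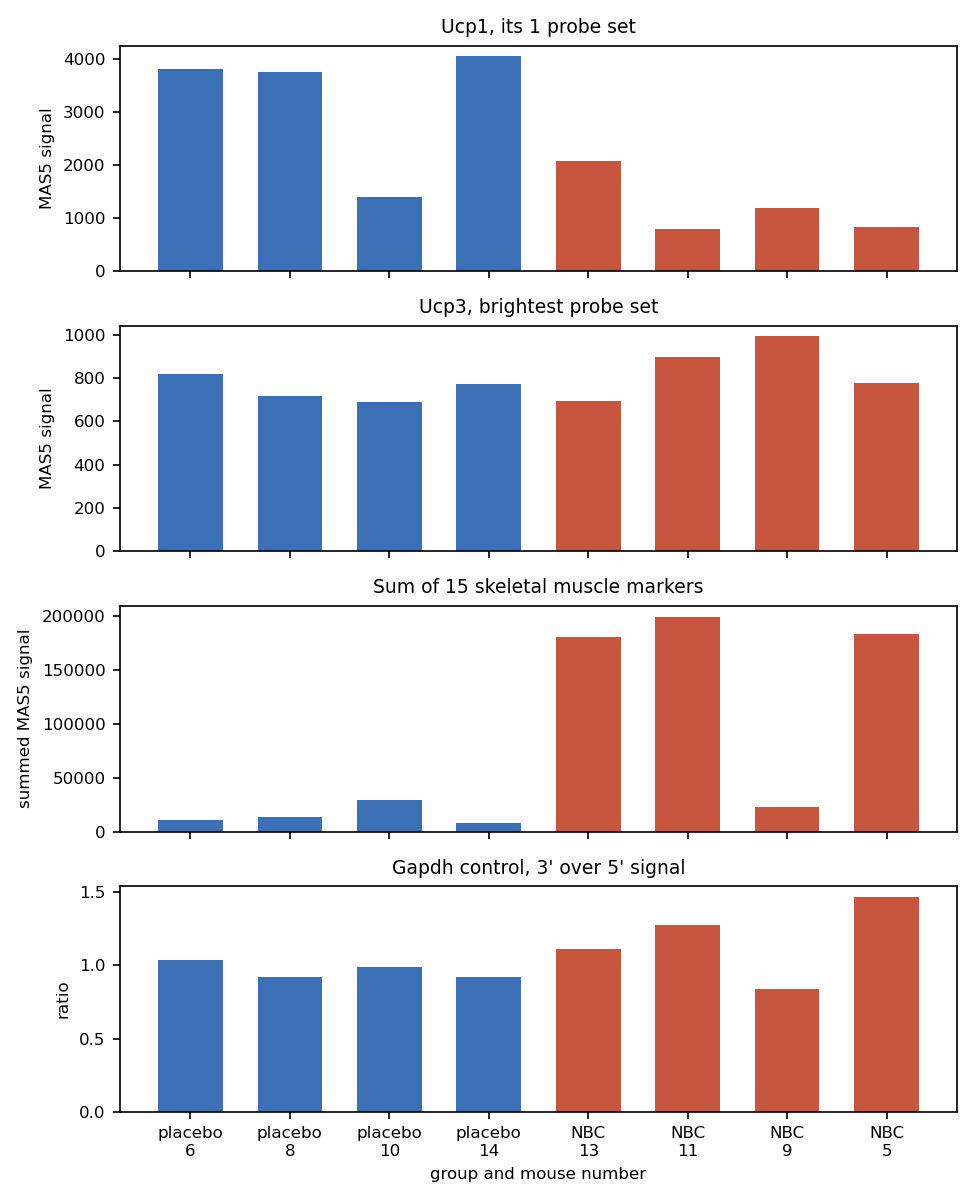
Bars give, for each mouse, the MAS5 signal of Ucp1 and of the brighter Ucp3 probe set, the summed signal of 15 skeletal muscle markers and the Gapdh 3′ to 5′ signal ratio, all on linear axes from 0 (blue, placebo; red, NBC). Ucp1 is below 2100 in all 4 NBC mice and in placebo mouse 10, while the brighter Ucp3 probe set (1420657_at) stays between 688 and 992 in all 8 mice, including NBC mice 13, 11 and 5 with high muscle sums (180303 to 199567).

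Ucp3, the relative of Ucp1 abundant in skeletal muscle, did not show this pattern. Its brighter probe set (1420657_at) gave placebo signals of 817, 718, 688 and 770.4. Its NBC signals were 693, 898, 992 and 779. The highest signal was in NBC mouse 9, the NBC mouse with low muscle markers, and the group ranges overlapped. The log2 difference was 0.15 (SE 0.14, 95% confidence interval -0.16 to 0.46; limma adjusted p = 0.862). The second probe set (1420658_at) ran from 194 to 573 over the 8 mice, averaged 373 ± 113 with placebo and 337 ± 164 with NBC (SD, n = 4 each) and differed by -0.19 (SE 0.32), so the sign was not shared. The mean of both probe sets gave -0.017. For comparison, the muscle creatine kinase Ckm reached 15116, 21901 and 18305 for NBC mice 13, 11 and 5 and 1081 for NBC mouse 9. Its placebo signals were 279 to 1373. The log2 difference of this Ckm probe set was 4.02, and that of the other kept Ckm probe set was 1.07.

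Ucp1 was then set against Ucp3 within each mouse. The log2 signal of Ucp1 minus that of Ucp3 was 2.19, 2.34, 1.01 and 2.36 with placebo and 1.55, -0.17, 0.27 and 0.10 with NBC. As for Ucp1 alone, placebo mouse 10 was the only placebo mouse below the highest NBC mouse. This Ucp3 probe set varied little (SD of log2 signal 0.18 over the 8 mice, beside 0.97 for Ucp1). The contrast therefore largely repeats the Ucp1 values and is not a separate observation. This contrast averaged 1.97 ± 0.65 (SD, n = 4) with placebo and 0.44 ± 0.76 (SD, n = 4) with NBC, a difference of -1.54 between groups (two-sided exact permutation p = 0.0571, 1 pair tested). With the second Ucp3 probe set the difference was -1.20 (two-sided exact permutation p = 0.143). A difference between the responses of Ucp1 and Ucp3 was thus not shown at the threshold of 0.05 with either probe set. Signals of different probe sets are not levels on a common scale, so only the change of this contrast between groups was compared.

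**Figure D2:**
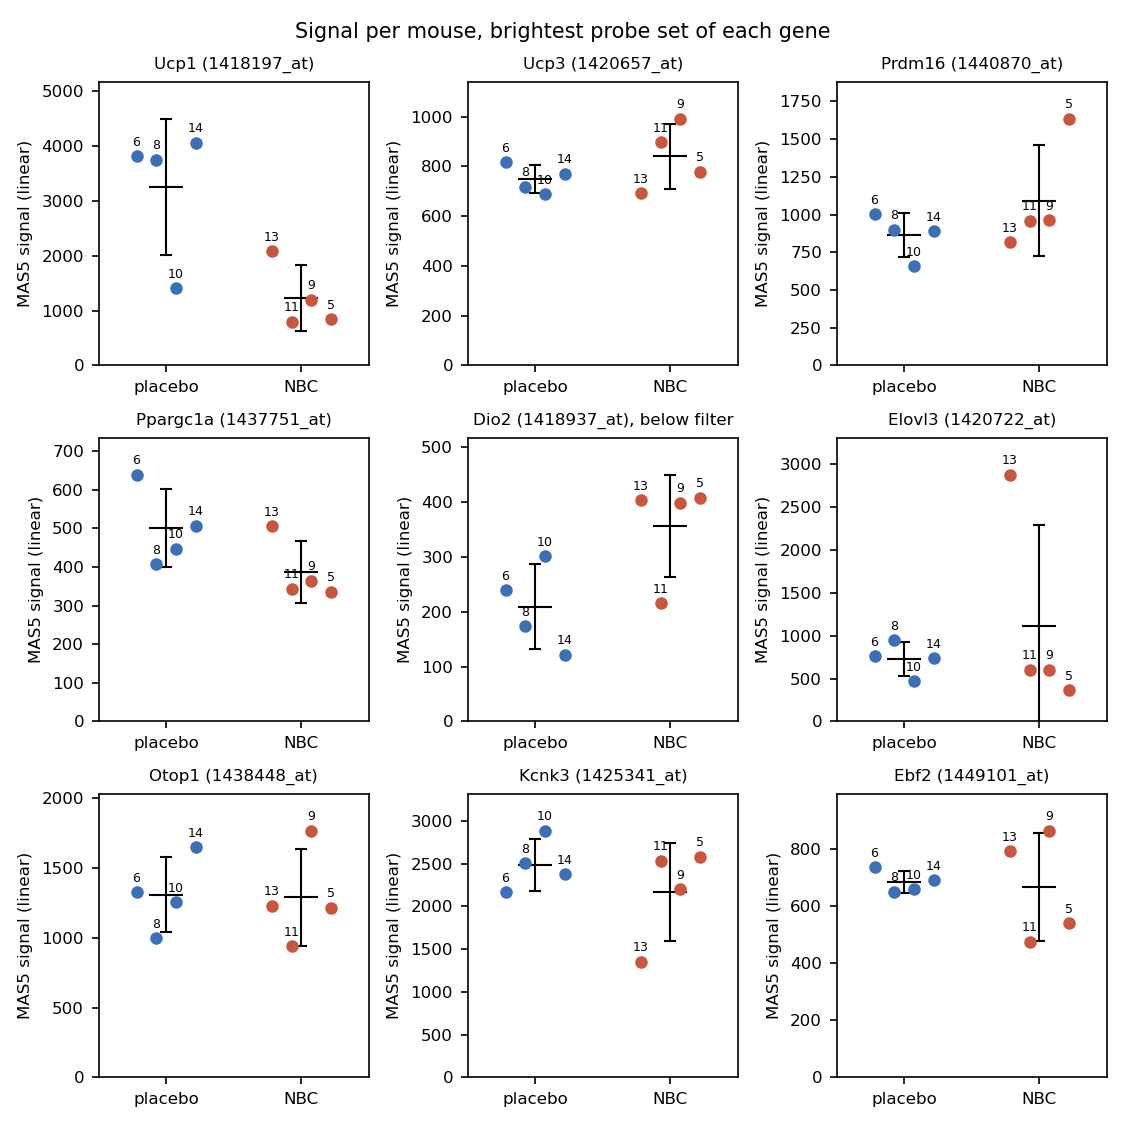
Each panel plots the linear MAS5 signal of the brightest probe set of 1 gene, with 1 numbered point per mouse (blue, placebo; red, NBC) and a black bar for the mean with its SD (n = 4; the lower SD bar of Elovl3 in NBC mice runs off the axis at 0). Ucp1 is the gene with the widest gap between group means, at 3260.3 and 1228, and the high NBC mean of Elovl3 comes from mouse 13 at 2878.

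The regulators that set brown adipocyte identity overlapped between groups and had smaller differences than Ucp1. Prdm16, a zinc finger coregulator that drives brown over muscle or white fate, gave placebo signals of 1002, 898, 656 and 890.3 with its brightest probe set (1440870_at). The NBC signals were 815, 959, 961 and 1636. Only NBC mouse 5 lay above all placebo mice. The log2 difference was 0.30 (SE 0.22, 95% confidence interval -0.21 to 0.81), and without NBC mouse 5 it was 0.092. Of the 3 other Prdm16 probe sets, 1429308_at also passed the filter and gave 0.32 (SE 0.25), and 1429309_at and 1440745_at lay below it and gave -0.088 (SE 0.22) and 0.29 (SE 0.71). The dim set 1440745_at ranged from 32.3 to 303 within the placebo group alone.

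Ebf2, a transcription factor that marks committed brown and beige precursors, had 3 probe sets above the filter that did not move alike. The brightest, 1449101_at, had group means of 684 ± 38.8 with placebo and 668 ± 189 with NBC (SD, n = 4 each). Its log2 difference was -0.072 (SE 0.19). Set 1418494_at gave 528, 509, 570 and 624 with placebo and 831, 824, 585 and 696 with NBC. There NBC mouse 9 alone lay inside the placebo range. Its log2 difference was 0.37 (SE 0.14, 95% confidence interval 0.047 to 0.69; limma adjusted p = 0.778; two-sided exact permutation p = 0.0571). The third, 1449102_at, gave 0.052 (SE 0.19). Stromal fibroblast markers, all 7 higher in NBC at their brightest probe sets, summed to 155639 to 175248 with placebo and to 180188 to 210642 with NBC. The 2 other kept probe sets of Pdgfra, 1 of the 7, gave -0.35 and -0.31. NBC mouse 9 stood at 199533 for the summed fibroblast markers. For the summed muscle markers it stood at 22468, beside 180303 to 199567 in NBC mice 13, 11 and 5. The part of fibroblast and of muscle markers in the Ebf2 values was not tested.

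Ppargc1a, the coactivator of mitochondrial biogenesis and of Ucp1 transcription, was measured above the filter by 1 of its 5 probe sets. Set 1437751_at gave 639.7, 408, 448 and 507 with placebo and 506, 344, 365 and 336 with NBC. NBC mice 11, 9 and 5 lay below all placebo mice and NBC mouse 13 did not. The log2 difference was -0.35 (SE 0.18, 95% confidence interval -0.75 to 0.059; limma adjusted p = 0.781). Without NBC mouse 13 it was -0.47. The 4 sets below the filter gave values from -0.76 (1456395_at, SE 0.35) to 0.070 (1434100_x_at, SE 0.29). Set 1456395_at averaged 146 ± 35.6 with placebo and 81.8 ± 43.3 with NBC (SD, n = 4 each), with overlap.

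Dio2, the deiodinase that makes active thyroid hormone inside brown adipocytes, went the other way from Ucp1 in its group means but was dim. Set 1418937_at gave placebo signals of 239, 174, 301 and 122. Its NBC signals were 403, 216, 399 and 408. NBC mice 13, 9 and 5 were above all placebo mice, and NBC mouse 11 lay inside the placebo range. The log2 difference was 0.73 (SE 0.31, 95% confidence interval 0.022 to 1.43; limma adjusted p = 0.919; two-sided exact permutation p = 0.0857). The other sets of this gene, 1418938_at and 1426081_a_at, gave -0.12 (SE 0.57) and -0.025 (SE 0.62), so no direction was shared by the 3.

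Among the effectors, Elovl3, a fatty acid elongase strongly induced in brown fat by cold, had group means that rested on a single mouse. The placebo signals were 758, 945, 469.7 and 734, and the NBC signals were 2878, 605, 601 and 365. NBC mouse 13 was 3.05 times the highest placebo mouse, while the other NBC mice lay at or below 605. The log2 difference was 0.16 (SE 0.55, 95% confidence interval -1.08 to 1.40), and without NBC mouse 13 it was -0.45 (SE 0.26). The same mouse had the highest Ucp1 and Ppargc1a signals of its group, and the highest summed macrophage markers of the series (341538 against 164167 to 247411 in the other 7 mice), whose part in the Elovl3 value was not tested.

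The membrane channels overlapped between groups. Otop1, a proton channel enriched in brown fat, gave 1326, 997, 1255 and 1649 with placebo and 1230.2, 939, 1767 and 1216 with NBC. Its group means were 1307 ± 269 and 1288 ± 346 (SD, n = 4 each). Its log2 difference was -0.034 (SE 0.21, 95% confidence interval -0.52 to 0.45). Kcnk3, a potassium leak channel of brown adipocytes, gave 2167, 2505, 2886 and 2378 with placebo and 1351, 2534, 2199.9 and 2582 with NBC at set 1425341_at. Its log2 difference was -0.23 (SE 0.21, 95% confidence interval -0.71 to 0.25). Kcnk3 was lowest in NBC mouse 13 at 1351, and without that mouse the difference was -0.022. Its sets below the filter gave 0.67 (1426058_a_at, SE 0.43) and -0.087 (1425342_a_at, SE 0.59).

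**Figure D3:**
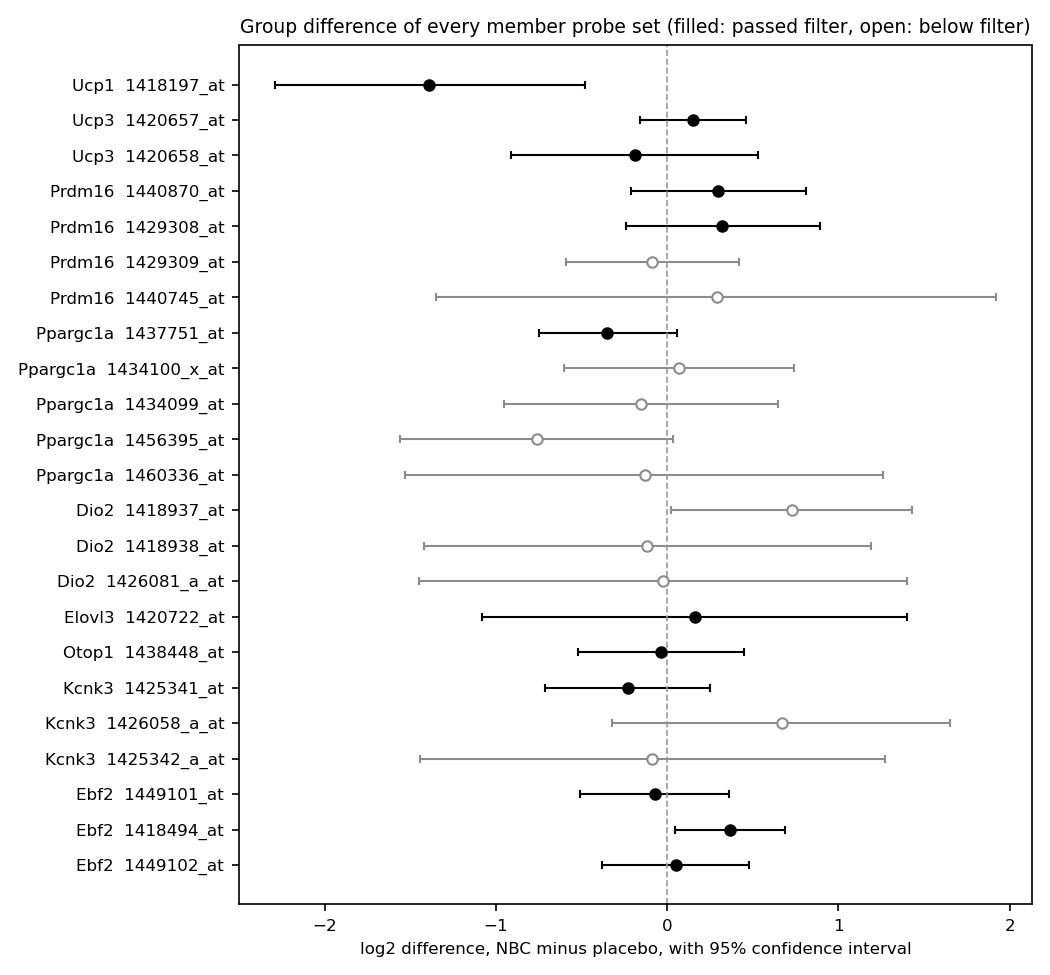
Points give the log2 difference (NBC minus placebo, n = 4 each) of all 23 probe sets with its 95% confidence interval, filled where the probe set passed the filter on dim signals and open where it did not. The interval of Ucp1 lies wholly below 0, from -2.29 to -0.48, those of Ebf2 1418494_at and Dio2 1418937_at lie just above 0, and the other 20 include 0.

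Each of the 6 genes with more than 1 probe set had sets on both sides of 0. Standard errors of the 12 sets above the filter were 0.14 to 0.55, with a median of 0.21, and those of the 11 below it were 0.22 to 0.71, with a median of 0.43. The dim sets therefore bound the differences less tightly.

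The genes whose pattern over the 8 mice was nearest to that of Ucp1 were found by the root mean square difference between mean-centred log2 signals, over 11661 other genes. They were Net1 (0.41), Cidea (0.47), Btc (0.51), Nap1l5 (0.52) and Epb41l4b (0.55), where the pattern of Ucp1 itself had a root mean square of 0.91 and the median distance to a gene was 0.93. Net1 gave 2385, 3207, 1485 and 2891 with placebo and 1191, 853, 1574 and 994 with NBC. Placebo mouse 10 was the lowest placebo mouse for Net1, Cidea, Btc, Nap1l5 and Epb41l4b, as for Ucp1. These genes were picked for their likeness to Ucp1 over the same 8 mice, so this shared low value is not independent evidence. For Ucp3 the nearest were Tm7sf3 (0.05), D830012I24Rik (0.08), Plekhg2 (0.09), Cd209a (0.09) and Inka1 (0.09), but the pattern of Ucp3 had a root mean square of 0.17 itself, so that any gene with a flat profile lies near it.

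Other genes around the thermogenic programme were read from 9 lists with 114 genes. Of these 94 were tested, 12 lay below the filter and 8 are not named in the annotation used. The 94 include 11 repressors of the programme, 8 white adipocyte markers and 14 other Slc25 carriers, so pooled counts do not give a direction of the programme. None passed limma's adjusted threshold, the smallest adjusted p being 0.653. Before adjustment, a p under 0.05 was reached by 10, of which 4 were higher and 6 lower, beside 2.73% and 2.71% of all 11662 genes. Groups did not overlap for 1 gene higher and 3 lower, beside 1.7% and 2.23% of all genes (3.93% in either direction). The median log2 difference of the 94 was -0.088, with 65 below 0, beside a median of -0.0064 and 51.5% below 0 over all genes. These counts move with the scaling: with each array centred on the adipocyte markers 24 of the 94 lay below 0 (median 0.087, beside 0.17 and 17.8% over all genes), and centred on the mitochondrial genes 52 did (median -0.034, beside 0.048 and 39.2%). The counts by list that follow are on the deposited scale. White adipocyte markers lay below 0 as well (8 of 8, median -0.18, with the imprinted gene Nnat at -0.34 and no overlap), as did 8 of the 10 measured general adipocyte markers.

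Of the 13 thermogenic effectors tested, 10 lay below 0 (median -0.10). The lipid droplet protein Cidea differed by -1.0 (SE 0.18) without overlap, and Pdk4, the kinase that restrains pyruvate dehydrogenase, by -0.62 (SE 0.26). The thioesterase Acot11 differed by 0.44 (SE 0.15) without overlap. Of 20 transcriptional activators 15 lay below 0 (median -0.067), with Pparg, the master regulator of adipocytes, at -0.23 (SE 0.12) and Irf4, a partner of Ppargc1a in thermogenic transcription, at 0.52 (SE 0.21). Of 11 repressors 8 lay below 0 (median -0.11). Among these the corepressor Nrip1 had means of 12920.4 ± 1446 with placebo and 9804 ± 575 with NBC (SD, n = 4 each) without overlap, a log2 difference of -0.39 (SE 0.12), although its 4 other kept probe sets ranged from -0.77 to 0.37.

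In the adrenergic and cyclic AMP list 8 of the 11 genes tested lay below 0 (median -0.088) and none reached an unadjusted p under 0.05. The phosphodiesterase Pde3b stood at -0.25 (SE 0.14) and the stimulatory G protein subunit gene Gnas at -0.17 (SE 0.12). Thyroid hormone action was split, 3 above and 3 below 0, with the receptor Thrb at -0.68 (SE 0.27) and Thra at 0.21 (SE 0.13). The other kept probe sets of Thra gave 0.0026 and -0.26. Heat cycles that do not need Ucp1 had 7 of 8 genes above 0 at their brightest probe sets (median 0.21), beside 48.5% of all genes. Other kept probe sets of some of these genes lay below 0. The 2 at an unadjusted p under 0.05 there were Atp2a1 at 2.99 (SE 0.86) and Ryr1 at 0.90 (SE 0.36), the calcium pump and release channel of skeletal muscle. Atp2a1 gave NBC signals of 11081, 8885, 636 and 6579, high and low in the same mice as the muscle markers, of which it is 1 of the 15. Of 14 other Slc25 carriers 10 lay below 0 (median -0.038), the ATP-magnesium carrier Slc25a25 at -0.47 (SE 0.19), although its other kept probe sets gave -0.17 and 0.57. The 3 beige markers tested gave -0.29 (Tmem26), -0.091 (Shox2) and 0.26 (Slc36a2), with 3 others below the filter. The other kept probe set of Shox2 gave 0.15.

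**Figure D4:**
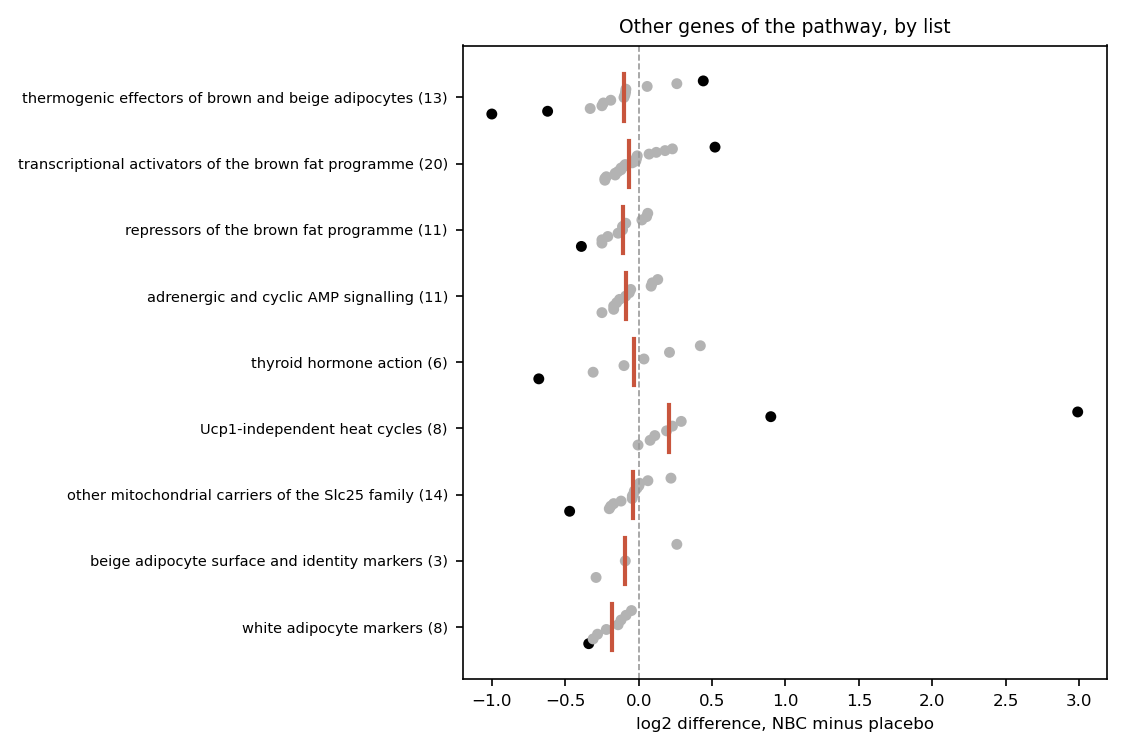
Each point is the log2 difference (NBC minus placebo) of 1 gene, by list, with the number of genes tested in brackets; black points have an unadjusted p under 0.05 and red bars mark the list medians. Medians of 8 lists lie between -0.18 and -0.033 and that of the Ucp1-independent heat cycles at 0.21, where the muscle genes Atp2a1 (2.99) and Ryr1 (0.90) lie farthest right.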

How the data were processed

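The deposited values were linear signal intensities by probe set, which the authors computed in MAS5 according to the submitters' processing notes. All arrays shared a 2% trimmed mean of 1500.01, so none was rescaled. The sources used here give no slide or scan batch. Of 45101 probe sets, 64 controls were left out. The annotation named 1 gene for 34945 of the rest, and 0 symbols changed when checked through Entrez identifiers against RefSeq.

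The scale was log2(signal + 26), with 26 the 10th percentile over the whole table, which understates differences of dim transcripts. limma 3.58.1 in R 4.3.3 (lmFit, eBayes, no covariate) compared 4 NBC with 4 placebo mice, with Benjamini-Hochberg adjustment. In simulated data with the real spreads of the 22519 probe sets, 50% of probe sets changed 2-fold and 94% of those changed 4-fold were recovered, with 9 false calls. The noise was normal and independent between probe sets, and 100 probe sets per fold were shifted equally in all 4 NBC arrays. Changes that an NBC mouse does not share, as NBC mouse 9 for the muscle markers, were not simulated, so these rates do not cover them. Groups and mouse numbers came from the titles. The number of arrays limits the precision. Up to 4 genes per list with the smallest p, and the 5 nearest patterns, were eligible to be named. The members and lists were chosen with earlier results of these data known. Alternatives were other pseudocounts, filters, scalings, variance models, array weights, the mean of a gene's probe sets and leaving out each mouse.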

Additional observations from a re-analysis of the deposited data

Results flagged for a closer look

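A sample far from the 3 others of its group was seen in 5 of 46 groups of 4 signals. For independent normal values chance alone gives about 1 in 20, or 2.3. The rule was applied to linear signals and the groups share the same mice, so 2.3 is only a rough guide. For Ucp1 the far sample was placebo mouse 10 at 1408, with the next placebo mouse at 3754. For Elovl3 it was NBC mouse 13 at 2878, with the next at 605. NBC mouse 13 also stood highest in its group for Ppargc1a 1437751_at (506, next 365) and for the dim Kcnk3 set 1425342_a_at (205, next 29.7). For Dio2 1418937_at NBC mouse 11 was lowest at 216, with the next at 399.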

How the results depend on the processing

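The Ucp1 difference stayed below 0 in all 17 alternatives, from -1.75 (without placebo mouse 10) to -1.21 (centred on adipocyte markers), and never passed the adjusted threshold (adjusted p 0.344 to 0.973). Ucp1 minus Ucp3 ranged from -1.91 to -1.34 with a mouse left out, where 4 against 3 cannot reach a p below 0.0571. Differences of Prdm16, Ppargc1a and Dio2 kept their sign in every alternative run, but Dio2 was 0.19 as the mean of its probe sets and Ppargc1a was -0.17 when centred on adipocyte markers. Signs turned for Ucp3 (-0.017, mean of its probe sets), Kcnk3 (0.12, likewise), Elovl3 (-0.061 with array weights), Otop1 (0.14 and 0.02 when centred on adipocyte and on mitochondrial markers) and Ebf2 (0.10 centred on adipocyte markers, 0.12 as the mean of its probe sets). With a mouse left out, Elovl3 ranged from -0.45 to 0.52 (below 0 without NBC mouse 13 or placebo mouse 10), Otop1 from -0.20 to 0.10 (above 0 without NBC mouse 11 or placebo mouse 14) and Ebf2 from -0.21 to 0.07 (above 0 without NBC mouse 11 or 5). Without NBC mouse 9, 18 probe sets passed the adjusted threshold, 17 of them higher in NBC and none of them a member, against 0 otherwise. The 1400 probe sets at an unadjusted p under 0.05 (739 higher in NBC) became 2126 with array weights, 884 and 2396 with a stricter filter (75th percentile) and no filter, 2208 (2098 higher) when centred on adipocyte markers and 1457 (1139 higher) on mitochondrial markers, and 1037 to 2549 with a mouse left out, the highest without NBC mouse 9. The stricter filter left 2 member probe sets, those of Ucp1 and Kcnk3, and gave no value for the others. No paired analysis was possible because no mouse number occurs in both groups, and the comparisons with Ucp2 were not run. The cause of these changes was not tested. The counts of members and of the listed genes under each alternative were added after seeing the data.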
